A study of Mus musculus with 6 samples.

Results

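Egr1, Egr2 and Egr3 encode early growth response (EGR) transcription factors, and their transcripts were examined in cultured OT-I cells with and without Themis. The members were chosen by gene symbol, and all 3 were found among the 854 genes of the deposited table. Egr4, the remaining gene of the family, was not analysed here. OT-I mice carry a transgenic T-cell receptor (TCR) specific for a peptide of ovalbumin, on CD8 T cells. Themis is a protein of T cells that takes part in TCR signalling. Cells in which Themis was conditionally knocked out (cKO) were set against wild-type (WT) cells. Cells of both genotypes bore the OT-I receptor, were enriched as naive cells from spleen and lymph nodes, and were kept in IL-2 at 1 µg/ml for 3 days. There were 3 libraries per genotype. The promoter that drives the deletion, the age of the mice and whether libraries came from separate mice are not given in the sources used here, so p-values reflect the spread from library to library, and that may be technical.

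EGR proteins are zinc-finger factors that bind GC-rich DNA, and their genes are immediate early genes, switched on shortly after a receptor signals and without new protein synthesis. In T cells the TCR induces them through the Ras and MAP kinase route, which acts on serum response factor (SRF) and its ETS-family partners, and Egr2 and Egr3 also respond to calcium and NFAT. Egr1 is known mainly as an activator of early response genes, whereas Egr2 and Egr3 are known in mouse T cells for restraining activation and for tolerance. The proteins Nab1 and Nab2 bind EGR factors and repress their activity.

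On GRCm38.p6, RefSeq places Egr2 on the plus strand of chromosome 10, from 67534469 to 67542188. The RefSeq promoter table held 5 windows for Egr2, each from 250 bases before a start site to 50 after it. Egr1 and Egr3 had no window there, so Egr2 was the only EGR gene searched. The stretch shown is the 250 bases before the start at position 67537869, chr10:67537619-67537868, plus strand, 5′ to 3′ (RefSeq, GRCm38.p6). It is shown because it carries a CArG box, the element that SRF binds, which is in capitals.
Egr2: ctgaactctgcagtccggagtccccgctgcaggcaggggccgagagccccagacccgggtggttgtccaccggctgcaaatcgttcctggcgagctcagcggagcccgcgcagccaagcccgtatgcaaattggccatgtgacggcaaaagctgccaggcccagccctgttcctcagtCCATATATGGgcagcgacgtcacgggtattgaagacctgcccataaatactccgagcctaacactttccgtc
The first base of that box lies at position -72 from the start site. Of the 5 Egr2 windows 4 held a CArG box, against 1.63% of all 32851 promoter windows of this length. Overlapping Egr2 windows shared a box, so the distinct boxes were 2. The EGR site GCGNGGGCG (5.55% of all windows), the cAMP response element TGACGTCA (1.79%), the AP-1 site TGACTCA (5.20%) and the TATA box TATAAA (13.6%) had no match on either strand in any Egr2 window. The ETS motif CCGGAA, present in 14.9% of all windows, had 3 matches in the window around the start at 67537566. The NFAT core GGAAAA, present in 23.4%, had 1 match there, which overlapped an ETS match. These matches describe letters, not binding.

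The deposited table holds a selected set of genes, and every value below has to be read with that in view. Taking mean counts of cKO over WT, no gene of the table had a log2 value from -0.94 to 1.06, so a gene had to differ to be present, the EGR genes included. Summed counts over the table ranged from 424605 to 437437 in the cKO libraries and from 946766 to 1054442 in the WT libraries, but they cover the selected genes alone, and library depth is unknown. Counts were therefore scaled within each genotype only (factors of 0.944 to 1.04), with both genotypes taken at equal depth. Themis, the deleted gene, had 970, 1247 and 1204 counts in cKO libraries against 5212, 5882 and 5171 in WT libraries (log2 fold change -2.25). Of 794 tested genes, 100% passed an adjusted p of 0.05 and 75.8% passed as lower in cKO and 24.2% as higher (edgeR quasi-likelihood test, Benjamini-Hochberg over all tested genes). All 3 EGR genes were among the lower ones, a count that the selection of the table makes uninformative on its own. Their sizes, their order and their ratios to each other are the values described here.

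Egr2 was the EGR transcript with the lowest ratio of cKO to WT. Its deposited counts were 63.7, 40.0 and 64.0 in the cKO libraries, against 388, 458 and 482 in the WT libraries. Every cKO library was far below every WT library, and cKO replicate 2 was the lowest of all. Scaled counts averaged 56.1 ± 14.5 in cKO and 441 ± 27.0 in WT (SD, n = 3 each), 7.86-fold lower in cKO. The log2 fold change was -2.97 (SE 0.20; edgeR quasi-likelihood test, adjusted p = 3.75e-07). Egr2, also called Krox20, is known in mouse T cells for its part in anergy.

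Egr3, the close relative that shares many of the roles of Egr2 in T cells, followed it in size of change. RefSeq places it on the plus strand of chromosome 14, from 70077317 to 70082613 on GRCm38.p6. The counts were 129, 151 and 154 in cKO libraries, against 798, 1003 and 718 in WT libraries. The WT libraries were spread more widely than for the other EGR genes, with replicate 2 high, but even the lowest of them stood well above every cKO library. Scaled counts averaged 145 ± 13.2 in cKO and 840.3 ± 149 in WT (SD, n = 3 each), 5.81-fold lower in cKO. The log2 fold change was -2.54 (SE 0.17; edgeR quasi-likelihood test, adjusted p = 3.55e-07).

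Egr1, the founding member, also called Zif268 or Krox24, had the smallest difference. RefSeq places it on the plus strand of chromosome 18, from 34861207 to 34864956 on GRCm38.p6. GENCODE vM21, on the same build, lists no other gene overlapping any of the EGR genes. Egr1 had 297, 353 and 329 counts in cKO libraries, against 954, 873 and 987 in WT libraries. The genotypes did not overlap, and libraries of a genotype lay close together. Scaled counts averaged 326 ± 24.6 in cKO and 939 ± 76.5 in WT (SD, n = 3 each), 2.88-fold lower in cKO. The log2 fold change was -1.52 (SE 0.12; edgeR quasi-likelihood test, adjusted p = 1.75e-06). The call for Egr1 depended on how the genotypes were scaled to each other: under scalings that centre the table on itself it was -0.23, with an adjusted p of 0.132 to 0.151, as the plot of fold changes by setting shows. Egr2 and Egr3 kept their calls under the same scalings, at -1.69 to -1.68 for Egr2 and -1.25 to -1.24 for Egr3, where 25.8% to 27.0% of tested genes were called lower (26.8% with DESeq2 size factors). Those scalings move the median of all genes by 1.29 to 1.30 on the log2 scale, and under TMM, one of them, 28.7% of tested genes were called higher. Adjusted over the 16996 genes that the deposited q-values imply, all 3 EGR genes stayed called, beside 70.3% of tested genes called lower.

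**Figure D1:**
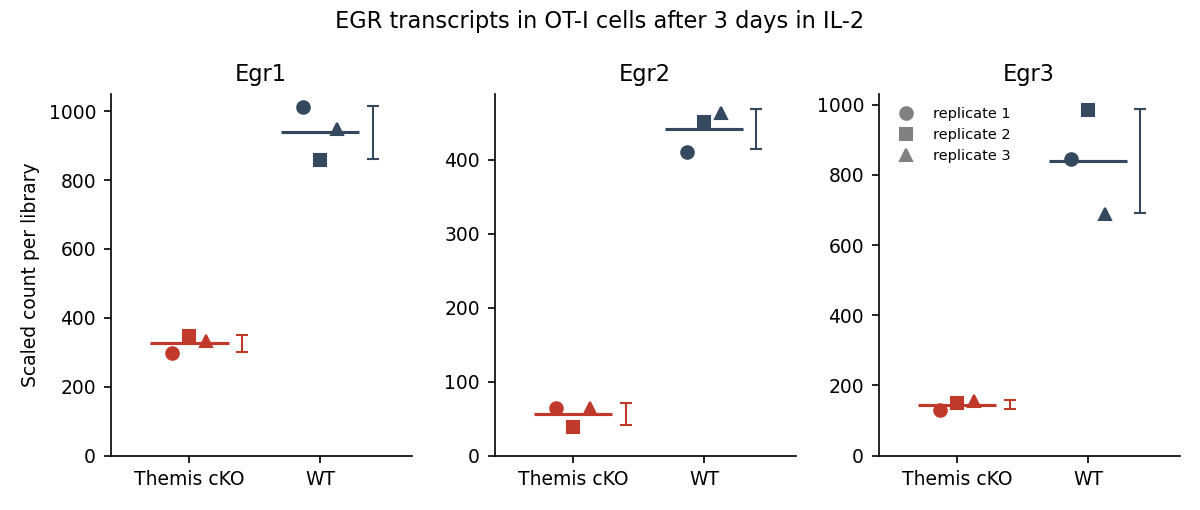
Scaled counts of Egr1, Egr2 and Egr3 in each library, Themis cKO left and WT right; points are libraries, horizontal lines are means and bars are SD (n = 3 each), and each y axis starts at 0. In each panel the 3 cKO libraries sit below the 3 WT libraries, at 299 to 347 in cKO and 858 to 1011 in WT for Egr1, 39.4 to 64.6 in cKO and 411 to 463 in WT for Egr2, and 129.9 to 155 in cKO and 689 to 986 in WT for Egr3.

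**Figure D2:**
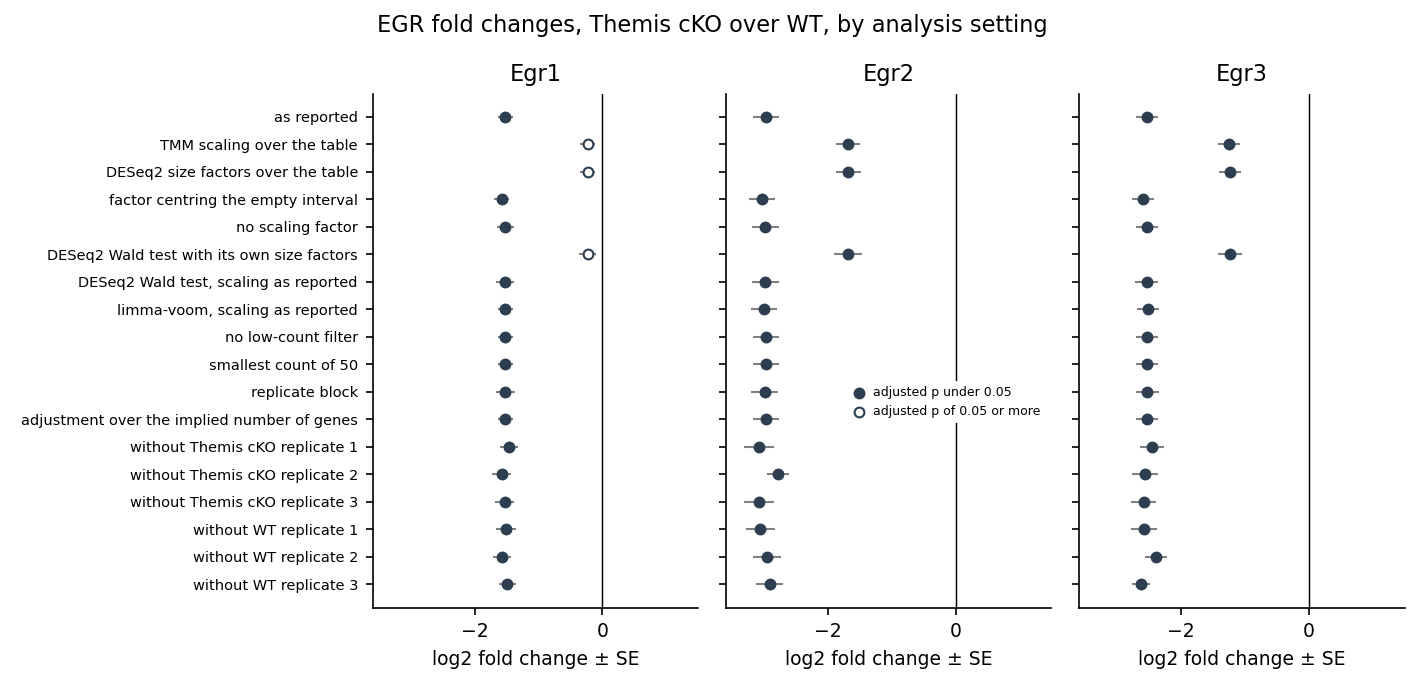
Log2 fold change of each EGR gene, Themis cKO over WT, with its standard error under every analysis setting; filled points have an adjusted p under 0.05. Egr1 lies near -0.23 and is open under the 3 settings that centre the table on itself, where Egr2 and Egr3 move toward 0 but stay filled.

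In bulk RNA fewer cells that express a gene and less RNA per cell cannot be told apart. Without overlap between genotypes and lower in cKO were all 3 EGR genes, against 75.7% of tested genes. Ranked by log2 fold change, 82 of the 794 tested genes were lower than Egr2, 122 were lower than Egr3 and 326 were lower than Egr1. Relative to the median of all tested genes (-1.34), Egr2 stood 1.63 further down, Egr3 stood 1.19 further down and Egr1 stood 0.18 further down on the log2 scale. Egr1 was thus near the middle of the table, and Egr2 and Egr3 were in its lower part. The median of -1.34 pools 602 genes called lower with 192 called higher. Of the 602 lower genes 326 lay below Egr1, so Egr1 was lower by less than most of them.

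**Figure D3:**
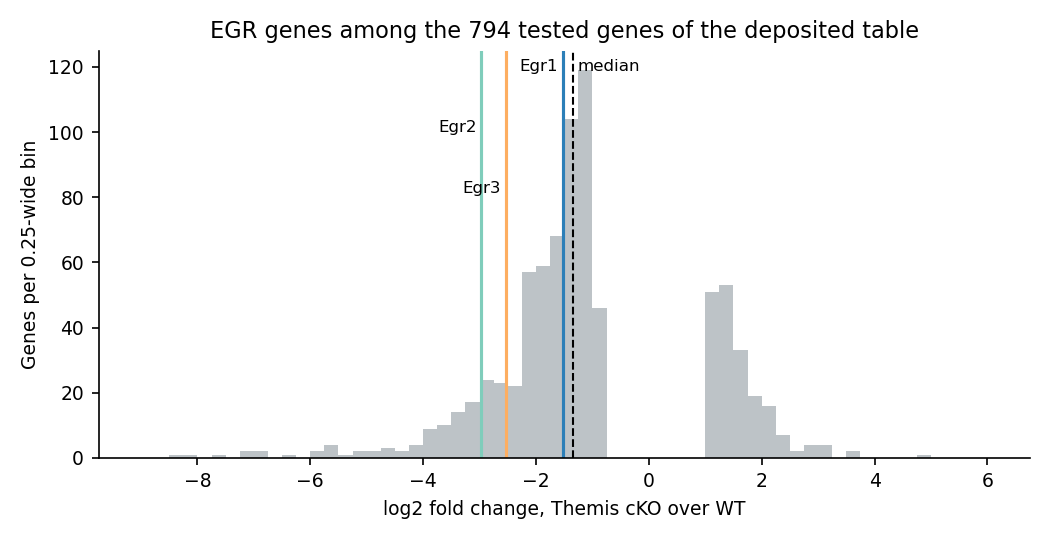
Histogram of the log2 fold change, Themis cKO over WT, of the 794 tested genes in bins 0.25 wide, with the EGR genes as coloured lines and the median as a dashed line. Egr1 at -1.52 lies beside the median of -1.34, while Egr3 at -2.54 and Egr2 at -2.97 lie to its left; the empty stretch around 0 is the fold interval without genes.

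The ratio of one EGR transcript to another within a library needs no scaling between genotypes. The Egr1 count was 4.61, 8.73 and 5.11 times the Egr2 count in cKO libraries, against 2.46, 1.91 and 2.05 times in WT libraries. It was 2.30, 2.33 and 2.13 times the Egr3 count in cKO libraries, against 1.2, 0.870 and 1.37 times in WT libraries. For both pairs every cKO library was above every WT library, so Egr1 was lower by less than either of the other transcripts. The Egr1 to Egr2 log2 ratio was 2.56 ± 0.49 in cKO and 1.09 ± 0.19 in WT (SD, n = 3 each), a difference of 1.47, and the Egr1 to Egr3 log2 ratio was 1.17 ± 0.07 in cKO and 0.17 ± 0.34 in WT, a difference of 1.00. Both had p = 0.10 in the two-sided exact permutation test, the smallest p that 3 libraries against 3 allow, and 0.15 after Benjamini-Hochberg adjustment over the 3 pairs, so neither could pass 0.05 in this design. The Egr2 to Egr3 ratio overlapped between genotypes: it was 0.498, 0.267 and 0.417 in cKO libraries and 0.487, 0.457 and 0.672 in WT libraries. Its log2 difference of -0.48 had p = 0.30 (exact permutation test, adjusted 0.30). Whether Egr2 and Egr3 changed to different extents was not resolved with 3 libraries a genotype. Without cKO replicate 2, the library with the lowest Egr2 count, that difference was -0.22, and without WT replicate 3 it was -0.30.

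Levels were compared between the genes per kilobase of their RefSeq transcript, 3.04 kb for Egr1, 2.96 kb for Egr2 and 3.94 kb for Egr3. Egr1 had 98.5, 114 and 109 scaled counts per kb in cKO libraries, against 333, 283 and 312 in WT libraries. Egr3 had 33.0, 37.7 and 39.4 per kb in cKO libraries, against 215, 250.3 and 175 in WT libraries. Egr2 had 21.7, 13.3 and 21.8 per kb in cKO libraries, against 139, 152 and 156 in WT libraries. The order of levels was thus Egr1, Egr3, Egr2 in both genotypes, with no overlap between neighbours in either. With lengths from the union of annotated exons (4.48 kb for Egr1), Egr1 at 191 to 225 per kb and Egr3 at 168 to 240.3 overlapped in WT, while in cKO the order had no overlap. Of the summed EGR counts per kb, Egr1 held 65.9% ± 2.87 in cKO and 46.1% ± 4.18 in WT (SD, n = 3 each). Egr3 held 22.5% ± 0.849 in cKO and 31.7% ± 4.68 in WT, and Egr2 held 11.7% ± 3.23 in cKO and 22.2% ± 2.03 in WT. For each gene the shares of the genotypes did not overlap, as the stacked bars show. Summed over the 3 genes, scaled counts were 493, 535 and 552 in cKO libraries, against 2267, 2295 and 2099.7 in WT libraries.

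**Figure D4:**
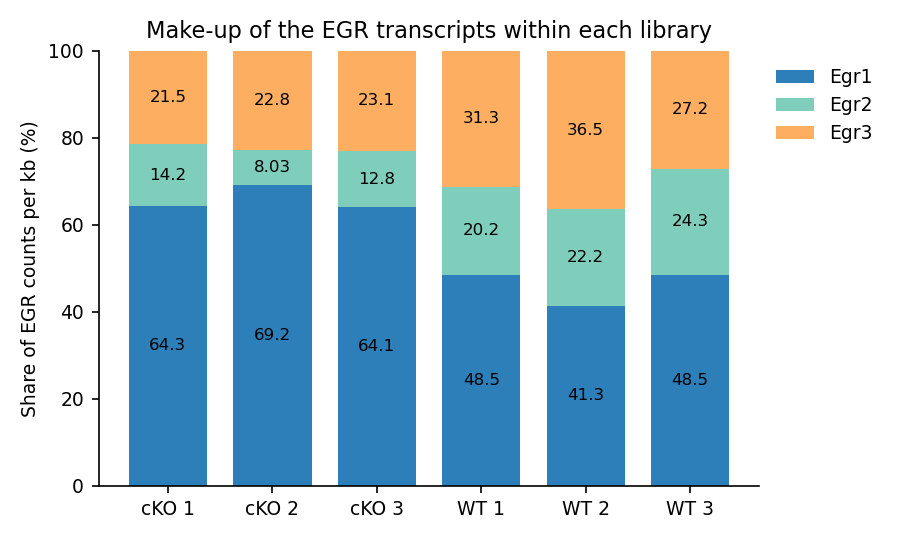
Share of each EGR gene in the summed EGR counts per kb of transcript, in percent, for the 3 Themis cKO libraries (left) and the 3 WT libraries (right). Egr1 makes up 64.1% to 69.2% in cKO and 41.3% to 48.5% in WT, and Egr2 makes up 8.03% to 14.2% in cKO and 20.2% to 24.3% in WT.

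The spread between libraries was described for each gene, with no test of a difference in spread. Over all tested genes the median coefficient of variation was 15.4% in cKO and 13% in WT. The coefficient of variation of Egr1 was 7.56% in cKO and 8.14% in WT, where counting alone gives 5.54% and 3.26%. For Egr3 it was 9.13% in cKO and 17.7% in WT, where counting alone gives 8.32% and 3.45%. For Egr2 it was 25.9% in cKO and 6.12% in WT, where counting alone gives 13.3% and 4.76%. Above those medians were thus Egr2 in cKO and Egr3 in WT. The variation fitted by edgeR was 12% for Egr1, 14.5% for Egr2 and 14.8% for Egr3, each below the median of 15.2% over the tested genes. The 3 genes did not share an order of libraries within WT: replicate 2 was lowest for Egr1 and highest for Egr3. The Egr2 counts were not whole in 4 of 6 libraries, while Egr1 and Egr3 had whole counts throughout.

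Of the EGR co-repressors, Nab2 was in the table and Nab1 was not analysed here. Nab2, which EGR factors themselves induce in other cell types, had 363, 366 and 304 counts in cKO libraries, against 638, 646 and 768 in WT libraries. The genotypes did not overlap, and the log2 fold change was -0.99 (SE 0.13; edgeR quasi-likelihood test, adjusted p = 4.86e-05). Its sign turned under the table-centred scalings, to 0.30 to 0.31. The ratio of an EGR count to the Nab2 count within a library is free of that scaling, and is given without a test because the pairs were chosen after the values were seen. Egr2 stood at 0.111 to 0.212 of the Nab2 count in cKO libraries and at 0.608 to 0.709 in WT libraries. Egr3 stood at 0.356 to 0.507 in cKO and at 0.935 to 1.55 in WT, and Egr1 at 0.818 to 1.08 in cKO and at 1.28 to 1.49 in WT. Each EGR transcript was thus lower relative to Nab2 in every cKO library than in any WT library. This is not particular to the EGR genes: 563 of the 794 tested genes had a lower log2 fold change than Nab2.

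Genes reported as targets of Egr2 and Egr3 in T cells were mostly outside the table: 6 of 24 listed were in it, 5 lower and 1 higher in cKO, beside 75.8% and 24.2% of tested genes, with a median log2 fold change of -2.34 against -1.34 for all tested genes. The inhibitory receptor gene Lag3 had 14.0, 15.8 and 11.7 counts in cKO libraries, against 169.6, 249 and 288 in WT libraries (log2 fold change -4.05). The cytokine gene Ifng fell by 2.79, the cell-cycle inhibitor gene Cdkn1a by 2.47 and the co-stimulatory receptor gene Tnfrsf9 (4-1BB) by 1.42 on the log2 scale (edgeR quasi-likelihood test, adjusted p of 3.94e-08 to 3.33e-07). Tnfrsf9 lost its call under the table-centred scalings, at -0.13 (adjusted p of 0.231 to 0.347). The other 2, named after their values were seen, were Rnf128 and Nrgn. Rnf128, a ubiquitin ligase gene of anergic T cells, had 3, 4 and 4 counts in cKO libraries, against 19, 15 and 18 in WT libraries, and its call also ended under those scalings. Nrgn, the neurogranin gene, went the opposite way, with 110, 101 and 89 counts in cKO libraries, against 20, 23 and 28 in WT libraries (log2 fold change 2.08). Reported targets in the table thus lay on both sides of 0.

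The routes that induce EGR genes were represented only in part. None of the 15 listed MAP kinase and SRF genes and none of the 11 calcium and NFAT genes was in the table, so they were not analysed here. Of 14 MAP kinase phosphatase and Sprouty genes, which act as feedback inhibitors, the table held 3, each of them lower in cKO, as were 75.8% of all tested genes. Dusp8 had 0, 0 and 1 counts in cKO libraries, against 58.0, 57 and 67 in WT libraries. Spry1 had 27, 41 and 30 counts in cKO libraries, against 110.0, 176 and 115 in WT libraries (log2 fold change -2.03). Dusp16 stood at -1.32 and lost its call once the table was centred on itself (adjusted p of 0.850 to 0.894). Of 20 proximal TCR signalling genes 4 were in the table, all lower in cKO beside the same 75.8%, and 1 of them is the deleted gene: Themis itself, Cd6 (-1.71), Cd5 (-1.61) and the adaptor gene Sla (-1.27), of which Sla turned sign, to 0.02 to 0.03, and Cd5 lost its call (adjusted p of 0.058 to 0.0713) when the table was centred on itself.

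Other immediate early genes were also looked up in the table. Of 26 listed, the table held 14, each of them lower in cKO, beside the 75.8% of tested genes that were, with a median log2 fold change of -1.73. Under TMM scaling, which centres the table on itself, 6 of the 14 were called lower and 2 higher, beside 27.0% and 28.7% of tested genes, and Junb, Myc and Csrnp1 turned sign. The stress-induced factor Atf3 had the lowest ratio, -5.87 on the log2 scale, with 16, 25 and 17 counts in cKO libraries, against 1039, 1128 and 1252 in WT libraries. The orphan nuclear receptor genes Nr4a2 (-3.48) and Nr4a3 (-3.05) lay beyond Egr2, and the activation marker Cd69 (-1.94) lay between Egr1 and Egr3. Nr4a2 had 44.6, 49.2 and 45.0 counts in cKO libraries, against 477, 569 and 508 in WT libraries. The 5 genes in the table from a list of 11 for dissociation stress and RNA quality were lower, beside the same 75.8%. Their median was -1.47, against -1.34 for all tested genes, the higher ones included. Under TMM scaling 1 of the 5 was called lower, and Gadd45a and Gadd45b turned sign when the table was centred on itself. Counts of the 5 genes summed to 658 to 728 in cKO libraries and 1848 to 2190.3 in WT libraries. Their part in the EGR differences was not tested.

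**Figure D5:**
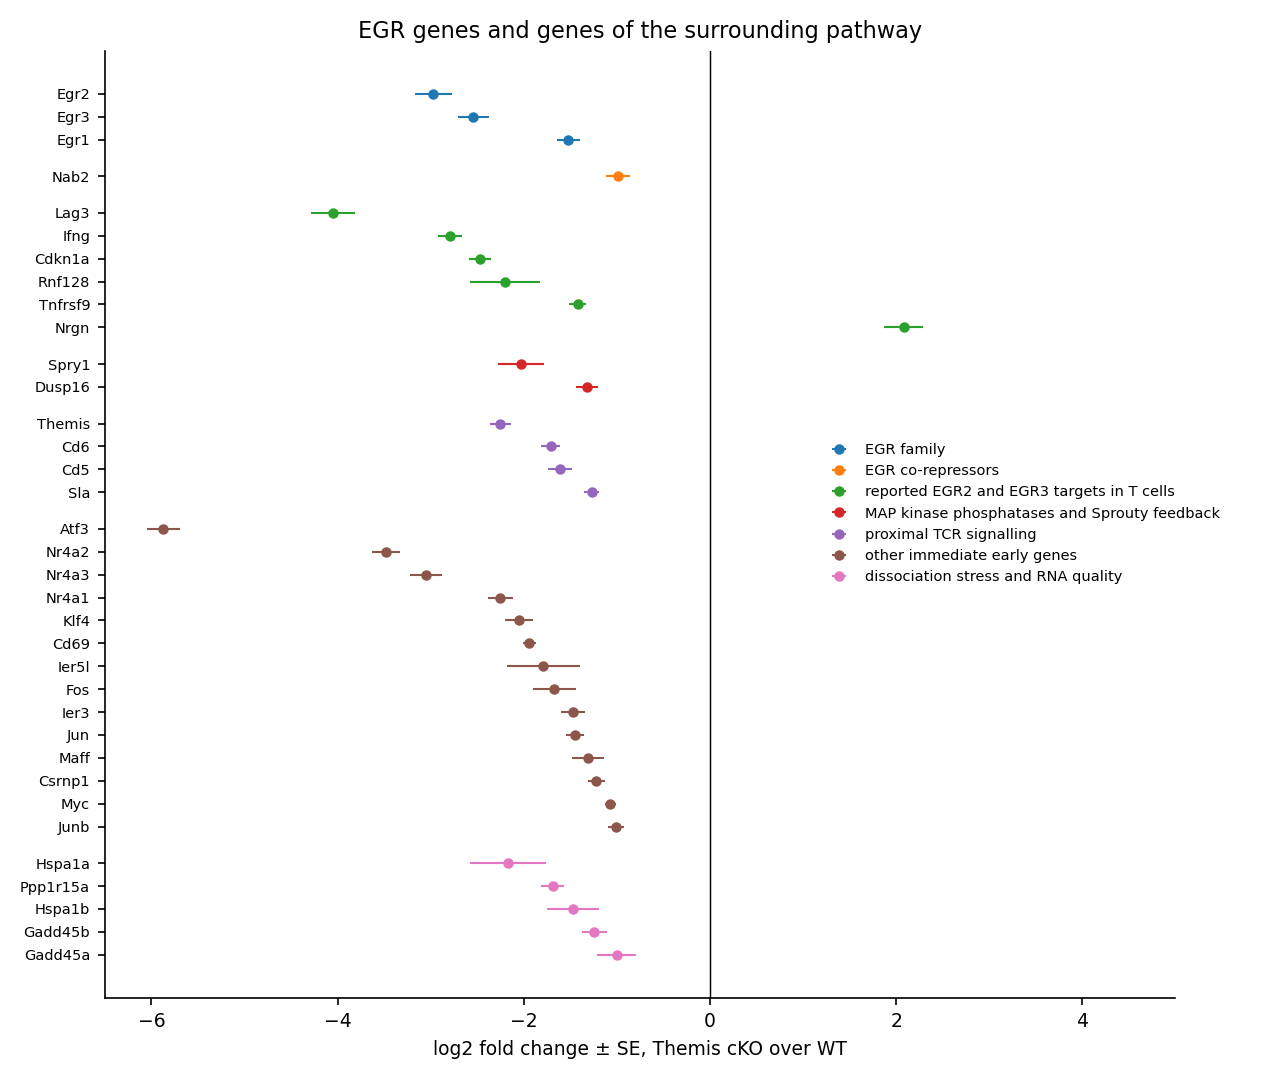
Log2 fold change, Themis cKO over WT, with its standard error for the EGR genes and the tested genes of the surrounding lists; colours mark the lists, and Dusp8, with 1 count over the cKO libraries, is not drawn. Nrgn is the 1 gene right of 0 at equal depth; Nab2, Sla, Csrnp1, Junb, Myc, Gadd45a and Gadd45b turn sign under the table-centred scalings.

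Likeness of profile was measured as the Euclidean distance between log2(scaled count + 0.5) values over the 6 libraries, each gene centred on its own mean, and it is dominated by the size of the genotype difference. Predicted genes, Riken clones and genes with accession-type names were left out of the nearest genes, but not of the medians. One of those may therefore lie nearer than the genes named. Nearest to Egr2 was Nr4a3 (distance 0.28), followed by Glrp1 (0.45) and the glycine transporter gene Slc6a9 (0.52), against a median of 2.28 over the other 793 genes. Nearest to Egr3 were the lectin receptor gene Cd209c (0.23), Ankrd37 (0.28) and the glucose transporter gene Slc2a3 (0.34), with a median of 1.76. Nearest to Egr1 were Ndrg2 (0.14), the syntaxin gene Stx11 (0.17) and Ppp1r3b (0.19), with a median of 1.03. Egr2 and Egr3 lay 0.97 apart, Egr1 and Egr3 1.32, and Egr1 and Egr2 1.95.

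Markers of other cells that a spleen or lymph node culture could hold moved in both directions, and none of those in the table was at 0 in all libraries. The 3 of 8 B cell markers in the table summed to 117 to 305 counts in cKO libraries and 61 to 106 in WT libraries. Among them Ms4a1 overlapped between genotypes, at 16 to 87 counts in cKO and 10 to 29 in WT. The 5 of 9 NK cell markers summed to 1139.7 to 2039.6 counts in cKO and 429.8 to 732 in WT. The 4 of 14 myeloid and dendritic markers summed to 323 to 353 in cKO and 650.2 to 833 in WT, but they split by direction. Mpeg1 (log2 fold change -2.91) and H2-Ab1 (-1.73) were lower in cKO, while Itgax (1.28) and H2-Eb1 (1.67) were higher. H2-Eb1 overlapped between genotypes, at 26 to 71 counts in cKO and 7 to 30 in WT. Neither Itgax nor H2-Eb1 kept its call in every setting. Ikzf2, the 1 of 5 markers of CD4 or regulatory T cells present, had 87 to 208 counts in cKO and 303 to 327 in WT. Its log2 fold change of -1.09 turned to 0.20 to 0.21 under the table-centred scalings, with no call (adjusted p of 0.519 to 0.576). The 1 of 9 stromal and endothelial markers, Madcam1, was at 1 to 2 counts in cKO and 8 to 13 in WT. Their part in the EGR differences was not tested. The 7 markers fixed for CD8 T cells were not in the table, so the labelled cell type was not checked here.

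The authors' deposited table gives log2 values of -1.23 for Egr1, -2.50 for Egr2 and -2.32 for Egr3. It orders the 3 genes as the counts do. Over the 794 tested genes, 0 had a sign in the authors' deposited table that differed from the sign at equal depth, while 180 of 788 or 181 of 786 differed under the table-centred scalings. As no gene lay from -0.94 to 1.06 in mean counts, a modest difference in depth would also leave nearly every sign unchanged. In the authors' deposited table the q-values are 0.00135 for Egr1, 0.000686 for Egr2 and 3.10e-14 for Egr3, all under 0.05, as are 67.6% of all 854 genes. Genes under 0.05 and lower in cKO make up 55.0% of the authors' deposited table.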

How the data were processed

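RNA from cultured OT-I cells was sequenced as 6 libraries on a DNBSEQ-G400, per the labels' protocols. The tools were RSEM 1.2.12, DESeq2 1.4.5, Bowtie2 2.2.5 and HISAT2 2.0.4, with the build GRCm38.p6, per the submitters' processing notes, which give no roles. The authors deposited estimated counts per gene (66.1% of values are whole) and, per the file headers, a log2 fold change, p-value and q-value of cKO over WT. The sources used here do not say how the 854 genes were chosen.

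Counts were rounded and fitted with edgeR 4.0.16 in R 4.3.3 (quasi-likelihood F-test on genotype alone, filterByExpr with a smallest count of 10). P-values were adjusted by Benjamini-Hochberg over 794 genes and called at 0.05; the standard error was derived from the F statistic. Library factors were medians of ratios within a genotype. From the deposited p-values with their q-values, 16996 tested genes are implied (whole ranks within 0.02 for 71.2% of 424 genes, next best 36.6%). Ratios used a pseudocount of 0.5. Simulated data were used to test the count model. Members, lists and the naming rule (the EGR genes, Themis, up to 4 members of a list by smallest p, and the 3 nearest profiles of each EGR gene) were chosen with earlier results of these data known. Alternatives used limma 3.58.1 and DESeq2 1.42.0. Tables, exact tests and figures were made in Python 3.11.15 with scipy 1.17.1, numpy 2.4.6, matplotlib 3.10.9 and pandas 2.3.3. Replicate libraries differed by more than sampling noise (chi-square over its degrees of freedom, 6.35 to 19.8), so all 6 were kept.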

Additional observations from a re-analysis of the deposited data

How the results depend on the processing

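Values were recomputed under up to 17 other settings. The fold changes of Egr2 and Egr3 kept their direction and their call under all 17. Egr1 kept its call under 14; it was -0.23 with TMM scaling (adjusted p = 0.132), with DESeq2 size factors (edgeR adjusted p = 0.151) and in the DESeq2 test with its own size factors (adjusted p = 0.132). These 3 settings centre a table in which lower genes outnumber higher ones, by construction. Under them the number of genes called was 439, 435 and 430 in place of 794, with 226, 224 and 227 of them higher, and the pathway genes called were 16, 16 and 17 in place of 28. In the other 14 settings most or all tested genes were called. Adjustment over the implied number of genes gave 720 of 794, and no scaling factor gave 796 of 796. A call kept in those settings therefore says little about a gene. Leaving out each library in turn gave -1.58 to -1.46 for Egr1, -3.08 to -2.78 for Egr2 and -2.63 to -2.39 for Egr3. It gave 798 to 810 genes called, of 801 to 811 tested, and 28 pathway genes called, of 28 tested. The same omissions gave 1.19 to 1.65 for the Egr1 to Egr2 log2 ratio, 0.814 to 1.14 for Egr1 to Egr3 and -0.667 to -0.218 for Egr2 to Egr3. No pairing by replicate number was seen: deviations of same-numbered libraries correlated at -0.06, -0.05 and -0.15, and none correlated best with its own number. Differently numbered libraries correlated at -0.03 to 0.10, so the check cannot tell which libraries, if any, were handled together. With the replicate block the values were -1.52 for Egr1, -2.99 for Egr2 and -2.53 for Egr3, 793 genes were called, and the ratios were unchanged with p of 0.25 to 0.50 (exact test). With adjustment over the 16996 genes that the deposited q-values imply, 720 genes were called, the EGR genes among them (edgeR adjusted p of 7.60e-06 to 3.75e-05). Total depth is unknown, and the log2 values of the authors' deposited table were set against each scaling. Their median difference from the values at equal depth was 0.22, against -1.08 to -1.07 from the table-centred values. At equal depth it was -0.49 over higher genes and 0.27 over lower genes, so the authors' values were nearer 0 in both directions. Signs differed for 0 genes at equal depth and for 180 or 181 under the centred scalings. No gene lay from -0.94 to 1.06 in mean counts, so a shift between genotypes smaller than 0.94 would also change few signs, if any. The signs therefore cannot tell equal depth from such a shift.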

Other observations

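Genes beside the EGR genes on the chromosome were looked up in the table. A low count there is the rule for any gene, as the table holds 854 of the 16996 genes that the deposited q-values imply. Of protein-coding genes within 500 kb, 1 of 20 around Egr1 (Lrrtm2), 1 of 6 around Egr2 (Zfp365) and 0 of 23 around Egr3 were in it.

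The EGR site GCGNGGGCG occurred in the promoter windows of 4 of the 12 other immediate early genes with a window, namely Klf4, Maff, Nr4a1 and Nr4a2, and in 10.6% of the 595 tested genes with one. The CArG box occurred in 0 of those 12 and in 2.35% of the 595.

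In the authors' deposited table the log2 value and p-value imply a standard error of 0.30 for Egr1, 0.59 for Egr2 and 0.28 for Egr3, where DESeq2 refitted to the deposited counts gave 0.14, 0.21 and 0.18. The ratio of implied to refitted error in the authors' deposited table was over 2 for 25.9% of 794 genes, Egr1 (2.21) and Egr2 (2.76) among them, with a median of 1.30. By p in the authors' deposited table, Egr3 ranked 28 of 854, Egr2 ranked 242 and Egr1 ranked 274. Egr2 has the lowest fold of the 3 but not the smallest p there.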
